A study of Sus scrofa with 96 samples.

Results

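In the livers of Danish Landrace boars, 15 of 25322 genes had a median level that stepped upwards from low to medium and again from medium to high genetic merit of boar taint (BT), each time by at least 0.2 on the log2 scale. These genes were selected on measured values of the same livers. The rule used 46 livers sequenced with a stranded mRNA kit, and the level of a gene was log2(CPM + 0.5), where CPM (counts per 1000000) is relative to the sum of reads on Ensembl genes of that library. It also asked for a median CPM over livers of 5 to 200, a standard deviation (SD) over livers below 1 and a median CPM over the stranded mRNA testes of at least 1, and it left out 2 numbered blocks of identifiers. Of all genes, 6339 met the limits on level and spread, and the 15 were 0.237% of those. A symbol was paired with 13 of them, namely FOS, MAFF, CSRNP1, NFE2L1, LIPG, SLC27A4, OGDH, ALDH18A1, CLDN4, MYO6, NOP2, PREP and CDK3, and the other 2, ENSSSCG00000000194 and ENSSSCG00000003208, are given by identifier.

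Liver and testis were taken from 48 non-castrated commercial males at slaughter, 16 of each merit. Low, medium and high BT refer to the breeding value of the sire, summed over skatole in fat and the human nose score, and not to a measured taint of the boar itself. No animal was treated, and the groups differ in no named allele. The stranded mRNA livers were 15 of low, 16 of medium and 15 of high BT, all in batch 1 of the submitters' file labels, with 3728775 to 12156143 reads on genes. Of the stranded mRNA testes, 7 of low and 7 of medium BT were in batch 1, and 6 of medium and 14 of high BT were in batch 2. The remaining 2 livers used here, 1 of low and 1 of high BT, were sequenced with a total RNA kit. Boars of a merit group can share a sire, and sires were not assigned to boars here, so the p-values treat related animals as independent. In whole tissue, fewer cells of a type and less RNA per cell cannot be told apart.

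Boar taint is an odour of heated pork caused mainly by skatole, which gut bacteria make from tryptophan, and androstenone, a steroid of the testis. The liver clears both compounds through oxidation by phase I enzymes and conjugation by phase II enzymes, and what escapes it is stored in fat. Besides this, hepatocytes take up and burn fatty acids, remodel lipoproteins and answer stress or injury with a fast wave of transcription factors, the immediate early genes.

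The 13 selected genes with a symbol fall into several roles, none of which is steroid or skatole oxidation. The 2 without a symbol were given no role. FOS, MAFF, CSRNP1 and NFE2L1 are transcription factors, LIPG and SLC27A4 handle lipids, OGDH and ALDH18A1 are mitochondrial enzymes, CLDN4 and MYO6 belong to cell junctions and the cytoskeleton, and NOP2, PREP and CDK3 act in the nucleolus, in peptide cleavage and in the cell cycle. Between low and high BT the medians differed by 0.47 to 0.80 on the log2 scale, with a median over the 15 genes of 0.52, which is a fold of 1.38 to 1.74. The first step, from low to medium BT, was 0.20 to 0.49, and the second was 0.21 to 0.48. In each of the 15 genes the 3 groups overlapped. The high BT liver was the higher one in 52.4% to 76.0% of the 225 pairs of a high and a low BT liver, with a median of 66.2%. These differences are what the rule asked for and carry no test.

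**Figure D1:**
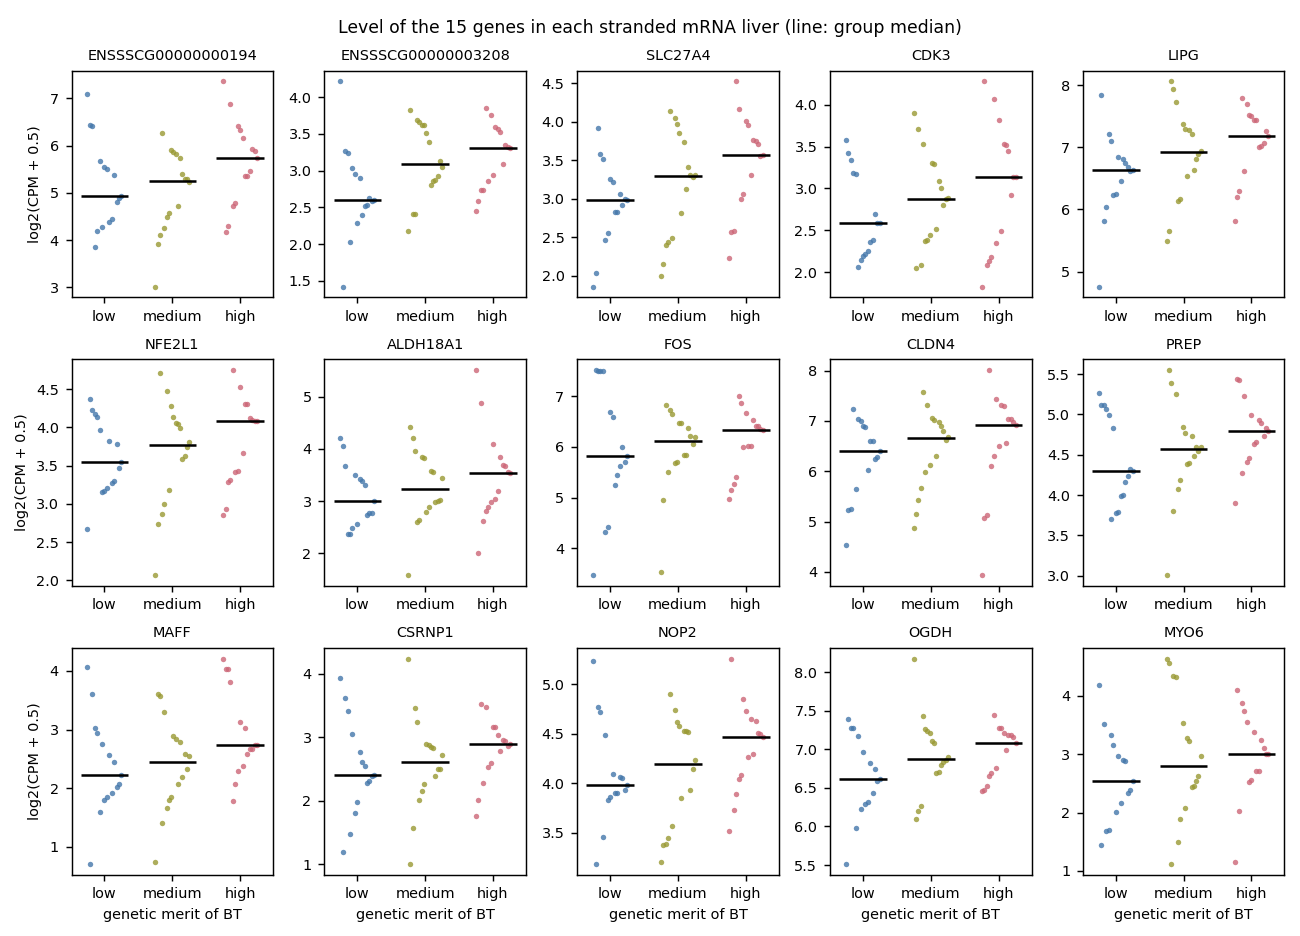
Level of each of the 15 genes, as log2(CPM + 0.5), in every stranded mRNA liver of low (15 points), medium (16 points) and high (15 points) genetic merit of BT, with the group median as a line. The lines climb in each panel because the genes were selected for it, and the points of the 3 groups cover much of the same range.

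Among the transcription factors, FOS, a partner of the dimer AP-1 and the textbook immediate early gene, had the widest range. Its level was 3.47 to 7.52 in low BT with a median of 5.82, 3.54 to 6.83 in medium BT with a median of 6.12, and 4.96 to 7.00 in high BT with a median of 6.34. The highest FOS values belonged to low BT livers, and no high BT liver exceeded them. The high BT liver was higher in only 52.4% of the pairs, the smallest share of the 15, and the difference of 0.52 between medians was 0.14 between means.

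MAFF, a small Maf protein that pairs with other basic leucine zipper factors, was counted with 9 to 169 reads per liver. Its level ranged over 0.71 to 4.07 in low BT (median 2.23), 0.74 to 3.61 in medium BT (2.45) and 1.78 to 4.21 in high BT (2.73). The lowest high BT liver lay more than 1 unit above the lowest liver of both other groups, and 13 of 15 high BT livers were above the low BT median. CSRNP1, a nuclear protein induced by AXIN1, showed 1.19 to 3.93 in low BT (2.41), 1.00 to 4.24 in medium BT (2.61) and 1.76 to 3.53 in high BT (2.90). No high BT liver reached the top of the low BT range, and the difference lay in the lower part of the distribution. In the RefSeq table of Sscrofa11.1 CSRNP1 overlaps the locus LOC106505568, and how reads of the overlap were counted was not examined.

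NFE2L1, a membrane-bound factor that controls proteasome genes and redox defence, had values of 2.67 to 4.37 in low BT (3.54), 2.06 to 4.72 in medium BT (3.78) and 2.85 to 4.76 in high BT (4.08). Only 9 of 15 high BT livers were above the low BT median. Its difference of 0.54 between high and low BT was 0.02 when the libraries were scaled with TMM factors, and its second step was then -0.21.

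Of the lipid genes, LIPG encodes endothelial lipase, a secreted phospholipase that acts on high-density lipoprotein. Its level was 4.76 to 7.85 in low BT with a median of 6.64, 5.50 to 8.07 in medium BT with a median of 6.92, and 5.81 to 7.80 in high BT with a median of 7.18. The high BT liver was higher in 72.4% of pairs, although no high BT liver passed the highest low BT liver. SLC27A4 encodes FATP4, a fatty acid transporter with acyl-CoA synthetase activity. It measured 1.86 to 3.92 in low BT (2.98), 2.00 to 4.14 in medium BT (3.29) and 2.23 to 4.53 in high BT (3.57). For this gene 4 high BT livers were above the whole low BT group, and high exceeded low in 75.1% of pairs. LIPG and SLC27A4 were the 2 genes that still met the rule whichever of the 46 livers was left out, but SLC27A4 missed it with TMM factors, and LIPG missed it with DESeq2 size factors and without the livers whose file label carries a second run.

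The mitochondrial enzyme OGDH, a subunit of the 2-oxoglutarate dehydrogenase complex of the citric acid cycle, was the steadiest of the 15 genes, with an SD over livers of 0.48. The 15 were variable genes, as 62.4% to 99.4% of the eligible genes had a smaller SD, with a median of 91.9%. OGDH had the lowest of these shares. Low BT livers held 5.51 to 7.39 (median 6.61), medium BT livers 6.10 to 8.18 (6.88) and high BT livers 6.46 to 7.44 (7.09). All high BT livers were thus above the lower end of the low BT range by almost 1 unit, and the upper ends of these groups were nearly equal. ALDH18A1 makes pyrroline-5-carboxylate, the precursor of proline and ornithine, from glutamate. Its values were 2.36 to 4.21 in low BT (3.01), 1.57 to 4.42 in medium BT (3.24) and 2.00 to 5.51 in high BT (3.53). The high BT group extended both above and below the low BT range, and ALDH18A1 met the rule in only 14 of the 46 sets that lacked 1 liver, the fewest of the 15.

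CLDN4, a claudin of epithelial tight junctions, was at 4.54 to 7.24 in low BT (6.41), 4.86 to 7.57 in medium BT (6.65) and 3.93 to 8.02 in high BT (6.92). The lowest and the highest liver of all 46 were both of high BT. Since claudin 4 is also an epithelial marker, the cholangiocyte list (KRT19, KRT7 and EPCAM, of which 1 had an identifier) was set beside it. Its summed median CPM was 6.28 in low, 4.95 in medium and 6.77 in high BT, with ranges of 1.37 to 24.3, 1.25 to 10.23 and 1.57 to 11.6, and its part in the CLDN4 level was not tested. MYO6, the actin motor that moves towards the minus end, had 1.45 to 4.18 in low BT (2.54), 1.11 to 4.64 in medium BT (2.79) and 1.16 to 4.10 in high BT (3.01). The high BT livers of MYO6 lay within the range of the medium BT livers.

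NOP2, a nucleolar methyltransferase of ribosomal RNA, measured 3.18 to 5.24 in low BT (3.98), 3.20 to 4.89 in medium BT (4.19) and 3.52 to 5.26 in high BT (4.47). PREP, the peptidase that cleaves after proline in short peptides, measured 3.70 to 5.27 in low BT (4.30), 3.00 to 5.55 in medium BT (4.57) and 3.90 to 5.43 in high BT (4.80). For PREP 13 of 15 high BT livers exceeded the low BT median, against 12 for NOP2, and the tops of the low and high BT ranges were close in both genes. CDK3, a cyclin-dependent kinase of early cell cycle entry, was spread over 2.06 to 3.58 in low BT (2.58), 2.04 to 3.90 in medium BT (2.88) and 1.82 to 4.29 in high BT (3.13). The high BT livers extended beyond the low BT range at both ends, and only 9 of 15 were above the low BT median. CDK3 overlaps TEN1 in Sscrofa11.1, and how reads of the overlap were counted was not examined. TEN1 itself missed the rule by little.

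Both genes without a symbol had the largest differences. ENSSSCG00000000194 was at 3.85 to 7.09 in low BT (4.94), 3.01 to 6.27 in medium BT (5.26) and 4.18 to 7.37 in high BT (5.74). It was the most variable of the set, with an SD of 0.94, and its difference of 0.80 between medians was 0.47 between means. ENSSSCG00000003208 was at 1.42 to 4.22 in low BT (2.60), 2.18 to 3.83 in medium BT (3.09) and 2.45 to 3.85 in high BT (3.31). A single low BT liver lay above all the others, and the high BT liver was higher in 76.0% of pairs, the largest share of the 15.

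The rule separated genes with close values. Just inside were NOP2, with steps of 0.20 and 0.28, CSRNP1, with 0.21 and 0.29, and OGDH, with 0.27 and 0.21. Just outside were TEN1, with steps of 0.21 and 0.20 (0.1981 before rounding), DIAPH1, with 0.22 and 0.20 (0.1978), and ST6GALNAC2, with 0.19 in both. The smaller of the 2 steps was 0.1 to 0.15 in 93 genes, 0.15 to 0.2 in 45, 0.2 to 0.25 in 11, 0.25 to 0.3 in 3 and above 0.3 in 1, ENSSSCG00000000194. There was no gap in these numbers at the threshold.

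Stepping upwards in the order of merit was a rare pattern among the possible orders of the 3 groups when libraries were scaled by their total count. With steps of the same size, 15 genes had the order low, medium, high, and 37 had the reverse. The order low, high, medium held for 24 genes, medium, low, high for 82, medium, high, low for 258, and high, low, medium for 12. Medium BT was thus the lowest group in most of the stepping genes. Over all 6339 eligible genes the median step was -0.16 from low to medium BT and 0.10 from medium to high BT, and with TMM factors these were 0.01 and -0.01. With TMM factors the 6 orders, in the sequence given, held 34, 59, 91, 54, 57 and 29 genes, and with DESeq2 size factors 30, 70, 86, 48, 54 and 33. The order of merit held the fewest genes of the 6 with DESeq2 size factors, and with the total count and TMM factors only the order high, low, medium held fewer.

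**Figure D2:**
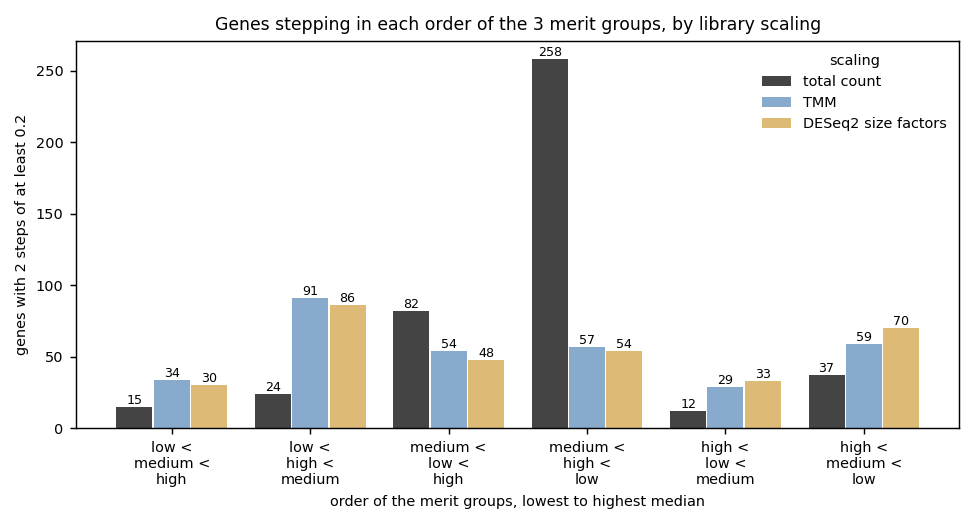
Number of genes whose group medians differ by 2 steps of at least 0.2 on the log2 scale, for each of the 6 orders of the merit groups and for 3 ways of scaling the libraries. Under the total count the order with medium BT lowest and low BT highest holds 258 genes and the order of merit 15, and under TMM factors they hold 57 and 34.

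The 2 steps of the selected genes depended on the scaling. High BT stayed above low BT in the medians of all 15 genes with TMM and with DESeq2 size factors, with a median difference of 0.51 and 0.48 against 0.52. Medium BT also stayed above low BT in all 15. However, high BT was above medium BT in only 9 of the 15 with either scaling, and FOS, NFE2L1, MYO6, ALDH18A1, OGDH and ENSSSCG00000003208 then had a medium BT median above the high BT median. Of the 15 genes, 3 met the whole rule with TMM factors, namely ENSSSCG00000000194, PREP and LIPG, and 2 with DESeq2 size factors, ENSSSCG00000000194 and PREP, where the second step of LIPG was 0.16. With means in place of medians only SLC27A4 met it. The median TMM factor was 1.02 in low, 0.945 in medium and 0.988 in high BT livers, and the 10 most abundant genes took a median of 28.4%, 32.3% and 33.4% of the reads in these groups. The part of library composition in the steps was not tested.

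**Figure D3:**
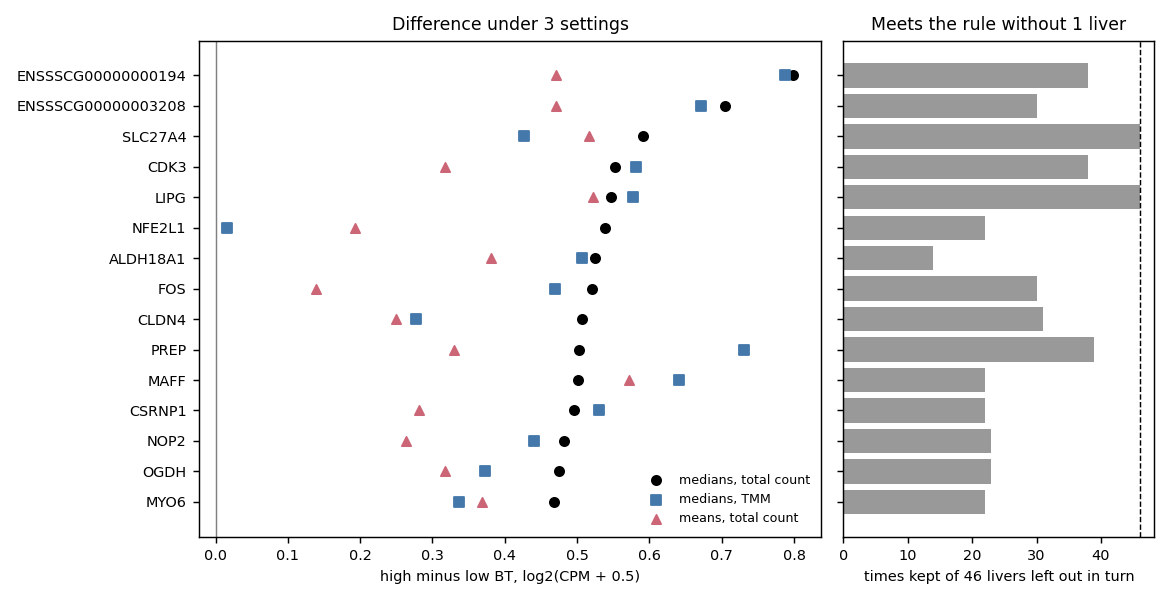
Left, difference between high and low BT livers in log2(CPM + 0.5) for the 15 genes, as medians with total count scaling, medians with TMM scaling and means with total count scaling. Right, number of times out of 46 that the gene met the rule when each liver was left out in turn, with 46 as a dashed line. All differences are above 0, that of NFE2L1 is 0.02 with TMM factors, and LIPG and SLC27A4 alone reach 46.

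In the fit of the study's design to the same livers (limma with voom and sample quality weights, 12198 genes), 16 genes, 0.131% of those tested, were higher in high than in low BT at an adjusted p-value under 0.05, and 431 were lower. None of the 15 selected genes was called, and 4 had an unadjusted p-value under 0.05. Since the genes were chosen on this contrast, nothing is read from these counts. The fitted log2 fold change of FOS was 0.08 ± 0.30 (SE), that of MAFF 0.50 ± 0.25 and that of CSRNP1 0.35 ± 0.23.

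The selected genes were not raised together in every high BT liver. A liver of low BT had 0 to 11 of the 15 genes above the median of all 46 livers, with a median of 5 genes. In medium BT the number was 3 to 11 (median 9.5) and in high BT 3 to 15 (median 11). In 6 high BT livers 12 or more genes were above that median, in no liver of the other groups was this the case, and 2 high BT livers had 3 or fewer. Because the genes were selected on these same livers, the rise of these counts with merit follows from the choice and carries no test. Within high BT there were both livers with nearly the whole set high and livers with nearly the whole set low.

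Within merit groups the 15 genes co-varied about as much as other genes on total count scaling. After removal of the group means, the median Pearson correlation over the 105 pairs was 0.23, from -0.40 to 0.79, and over all pairs of eligible genes it was 0.21. With TMM factors these medians were 0.15 and 0.00. The 46 points share library depth and composition, and the correlations are descriptions without a test. The closest pairs were SLC27A4 with CLDN4 (r = 0.79, and 0.76 with TMM factors), NOP2 with OGDH (0.77 and 0.74) and NOP2 with SLC27A4 (0.71 and 0.67). The immediate early genes formed another cluster, in which CSRNP1 correlated with MAFF at 0.59 and with FOS at 0.55, or 0.61 and 0.58 with TMM factors. LIPG went with CSRNP1 (0.54) but against ENSSSCG00000000194 (-0.40) and CDK3 (-0.36). The set therefore did not behave as a single co-varying group between livers.

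**Figure D4:**
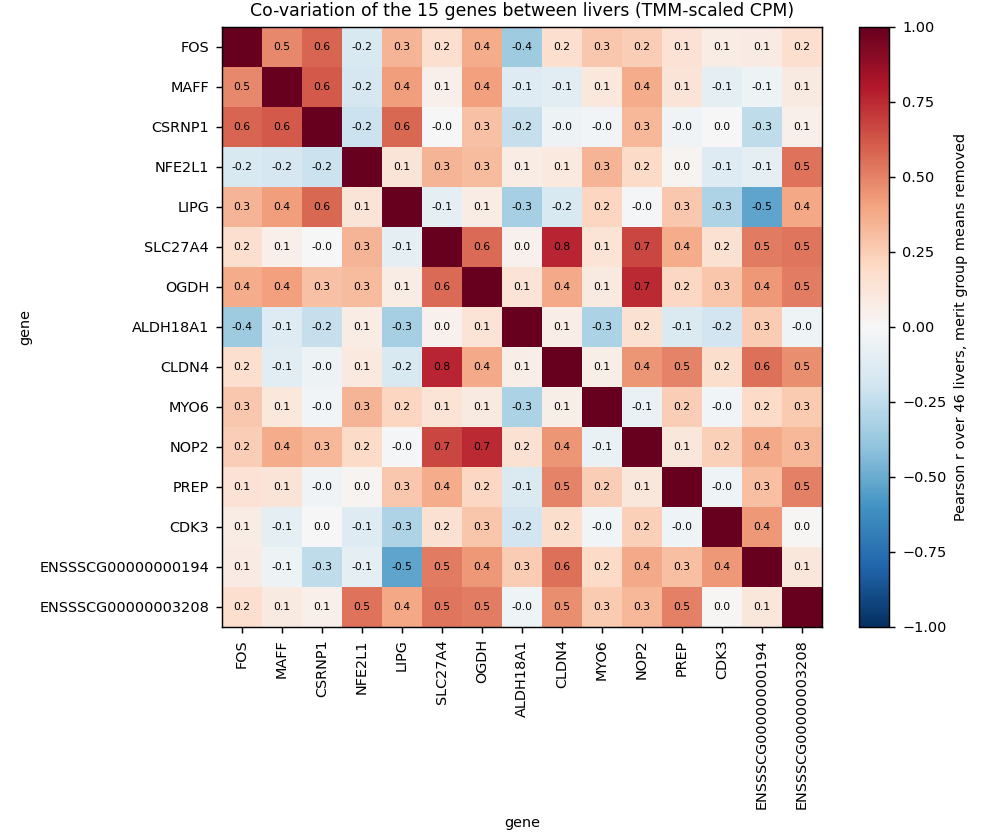
Pearson correlation between each pair of the 15 genes over 46 livers after removal of the merit group means, on log2(CPM + 0.5) with TMM-scaled CPM. SLC27A4, OGDH, CLDN4 and NOP2 form a block of positive values, FOS, MAFF, CSRNP1 and LIPG another, and LIPG against ENSSSCG00000000194 is the most negative pair.

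The partners whose levels were most like those of the selected genes were sought among all eligible genes, and of the closest 3 of each gene only some with a symbol are given. Over the 46 livers FOS followed EGR1 (r = 0.81) and NR4A2 (0.76), which are immediate early genes. NOP2 followed DKC1 (0.90), FTSJ3 (0.89) and CEBPZ (0.88), which act in the nucleolus. CSRNP1 followed SUSD6 (0.76) and PPP1R15A (0.72), SLC27A4 followed TOMM40 (0.87), and CLDN4 followed LPCAT3 (0.86), an enzyme of phospholipid remodelling. OGDH followed SPTAN1 (0.92), LIPG followed GRAMD2B (0.73), ALDH18A1 followed PHB1 (0.75), PREP followed ACSL3 (0.75), MYO6 followed TRIP12 (0.75) and NFE2L1 followed THRAP3 (0.86). MAFF followed PPP1R15A (0.67), ENSSSCG00000000194 followed CCT8 (0.80), and ENSSSCG00000003208 followed HDLBP (0.81). CDK3 had the weakest partners, IFT57 at 0.60 being the closest with a symbol. These correlations were computed on total count scaling with the merit group means removed.

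Because FOS, MAFF and CSRNP1 are immediate early genes, a list of 28 such genes was examined, which was drawn up after the 15 genes were known. Of these, 19 were found by symbol, and the 3 selected genes were the only ones that met the rule. Of the other 16, 11 had a higher median in high than in low BT and 4 had medians in the order low, medium, high. Of the 6339 eligible genes 42.6% and 11.3% did on total count scaling. The list was not held to the limits on level, and some of its genes lay below 5 CPM. Among these, EGR2 and KLF10 count as higher by only 0.0023 and 0.0048. The 2 sets are thus unlike, and nothing particular to the list is read from these counts. Of the 17 with enough reads for the fit, 0 were called by limma. PPP1R15A, a regulator of the stress response of translation, had medians of 3.64, 3.94 and 4.08 in low, medium and high BT. EGR1 had 5.43, 5.46 and 5.67. In contrast, ATF3 had 4.56, 3.69 and 4.78, and IER2 had 3.07, 2.69 and 3.50, so that medium BT was the lowest group. JUNB (5.24, 4.99 and 5.09), CCN1 (4.84, 4.52 and 4.65) and IER3 (2.33, 1.50 and 2.25) had a lower median in high than in low BT.

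The lists of taint metabolism held no gene that made both steps. This was so for 6 of 11 listed phase I enzymes that were found by symbol, for 3 of 6 phase II enzymes and for 5 of 6 genes of cholesterol and bile acid metabolism. Of the phase I enzymes 1 was called lower in high BT by limma, and 0 of the other 2 lists were called. Markers of hepatocytes (6 of 7 found) were present in all groups with a summed median of 158500 CPM in low and 160000 CPM in medium and in high BT. ALB alone had medians of 124100, 135300 and 139600 CPM in low, medium and high BT, so the sum says little about the other markers. Markers of macrophages (3 of 4 found), lymphocytes (1 of 3), endothelium (1 of 3) and stellate cells (2 of 3) had 0 calls, and their summed levels overlapped between the groups. Over all 12198 genes of the fit 447 were called. The 2 erythroid markers found had a summed median of 2219 CPM in low, 1352 in medium and 1339 in high BT, with a median log2 fold change of -0.67 and 0 calls, and their part in the steps of the 15 genes was not tested.

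The 2 total RNA livers, which the rule did not use, gave 1 value per group and no replicate check. The study used this kit for samples of lower RNA integrity. Of their reads counted to a gene, to no gene or as ambiguous, 31.0% in high and 28.4% in low BT were assigned to genes. The stranded mRNA livers had 43.7% to 70.8% by the same measure. Of the 15 genes 11 were higher in the high BT library, while 44.8% of the 6339 eligible genes were. The median difference was 0.61 on the log2 scale over the 15 genes and -0.07 over the eligible genes. The immediate early genes had the largest differences, with 73 reads of MAFF in high and 4 in low BT, 60 and 13 reads of CSRNP1, and 439 and 122 reads of FOS, from 3864873 and 4046334 reads on genes, respectively. LIPG had 1313 and 762 reads and OGDH 895 and 460. Lower in the high BT library were ALDH18A1 with 44 and 102 reads, CDK3 with 9 and 18, SLC27A4 with 17 and 25 and, by less than 0.01, NOP2 with 62 and 65. Whether these values belong to merit or to these animals cannot be told apart, and the part of RNA quality in them was not tested.

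Testis offered a measure that the rule did not use, since only the level over all testes, and not its relation to merit, entered the choice. However, all 34 stranded mRNA testes came from boars whose livers were used to select the genes, so that testis values are not those of independent animals, and carry-over of a level between the tissues of a boar was not tested. The median CPM over the stranded mRNA testes was 1.49 to 125 for the 15 genes. Merit was compared within batches, because all stranded mRNA testes of low BT were in batch 1 and all of high BT in batch 2. The 2 comparisons share no library.

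Between medium and low BT in batch 1 (limma with voom and sample quality weights, 7 and 7 testes, 15411 genes), 0% of all genes passed an adjusted p-value of 0.05, and 0 of the 15 genes did. By edgeR 0 genes were called as well and by DESeq2 7, none of them among the 15. An unadjusted p-value under 0.05 was found for 2252 genes with limma and for 1 of the 15, LIPG. The fitted log2 fold change was positive in 14 of the 15 genes, with a median of 0.18, whereas it was positive in 62.4% of all genes, with a median of 0.08. With TMM factors it was positive in 12 of the 15, with a median of 0.09, and in 53% of all genes, with a median of 0.02. The testis of medium BT boar 8308 stood apart, with a median correlation of 0.52 with the other stranded mRNA testes. Median correlations of the other testes were at least 0.966. Without the testis of boar 8308, 14 of the 15 fold changes by limma were positive, with a median of 0.17. Over all genes 62.6% were then positive, with a median of 0.08. By edgeR, which gives the library full weight, the median over the 15 was 0.53 with it and 0.11 without it. Of the 15 fold changes 14 and 12, respectively, were positive. Over all genes the median by edgeR was 0.09 with the library and 0.02 without it, and 56.6% and 52.6% were positive.

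The endothelial lipase gene LIPG had testis levels of 3.57 to 4.56 (median 4.17) in low and 3.76 to 5.75 (4.51) in medium BT of batch 1, which overlapped. Its log2 fold change was 0.51 ± 0.21 (SE), with an adjusted p-value of 0.289 by limma. NFE2L1 was at 2.62 to 4.74 (3.89) in low and 3.18 to 6.55 (4.54) in medium BT, and its log2 fold change of 0.58 ± 0.31 was the greatest of the 15. The top value of NFE2L1 in medium BT was that of boar 8308, the next was 5.40, and without this testis the fold change was 0.55 ± 0.32. The values of SLC27A4 were 1.298 to 2.75 (1.83) and 1.63 to 4.13 (2.26), and the fold change was 0.41 ± 0.24. Here too the top value was that of boar 8308, the next was 2.75, and the fold change without it was 0.40 ± 0.24. All 3 genes overlapped between groups, and the adjusted p-values were 0.39 for NFE2L1 and 0.423 for SLC27A4. CSRNP1, at -0.06 ± 0.18, was the only one of the 15 with a negative sign.

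Between high and medium BT in batch 2 (14 and 6 testes, 15164 genes), limma called 1 gene, 0.00659% of those tested, and 0 of the 15. The fold change was positive in 12 of the 15 genes with a median of 0.16, and in 51.4% of all genes with a median of 0.00. Unadjusted p-values under 0.05 were found for 627 of all genes and for 2 of the 15, LIPG and CSRNP1. LIPG measured 3.80 to 4.86 (4.28) in medium and 4.13 to 5.89 (4.64) in high BT, a log2 fold change of 0.42 ± 0.19. CSRNP1 measured 3.59 to 4.23 (4.01) in medium and 3.46 to 4.62 (4.38) in high BT, a fold change of 0.38 ± 0.16. The groups overlapped in both genes, and the adjusted p-value was 1 for each. The largest of the 15 was that of MAFF with 0.44 ± 0.32, at 1.33 to 2.14 in medium and 1.29 to 3.73 in high BT, and CLDN4 had 0.31 ± 0.17. Negative signs were found for MYO6 (-0.12 ± 0.19), ENSSSCG00000000194 (-0.08 ± 0.10) and NFE2L1 (-0.03 ± 0.25).

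**Figure D5:**
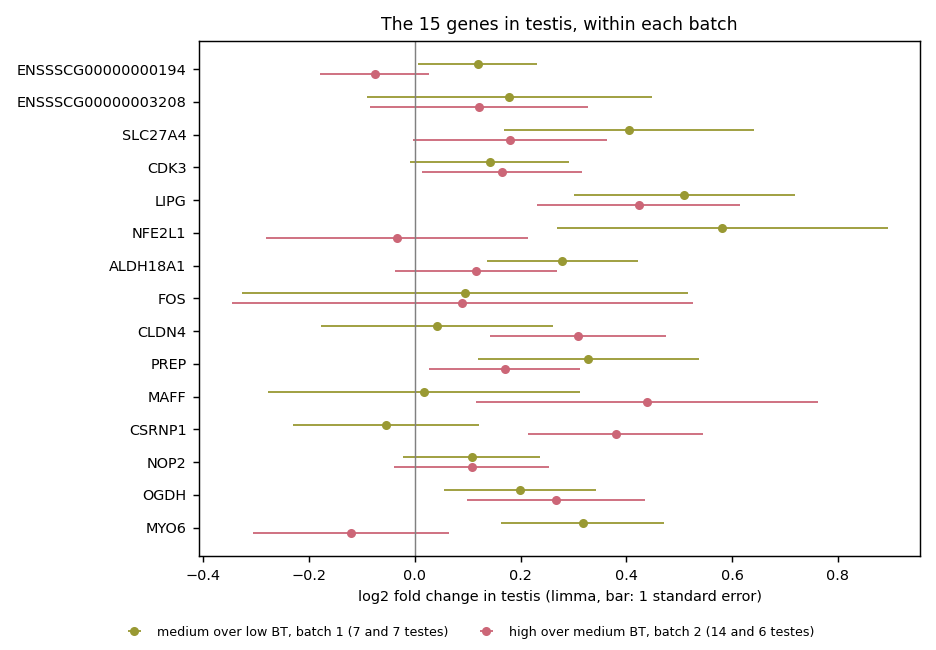
Log2 fold change in testis by limma, with 1 standard error as bar, of the 15 genes for medium over low BT in batch 1 (7 and 7 testes) and for high over medium BT in batch 2 (14 and 6 testes). Of the points, 14 and 12 lie above 0, LIPG lies above 0 by more than 2 standard errors in both batches, and no gene passed an adjusted p-value of 0.05.

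LIPG was thus above the lower merit group in both batches of testis, by fitted log2 fold changes of 0.51 and 0.42, each for 1 step of merit. In liver, where LIPG was selected, the steps between its medians were 0.28 and 0.26, which are not fitted values. The adjusted p-values of LIPG in testis gave no call. SLC27A4, PREP, OGDH, CDK3, ALDH18A1, NOP2, CLDN4, FOS, MAFF and ENSSSCG00000003208 were likewise positive in both batches of testis, at 0.02 to 0.44. Of these genes 0 passed the test. Over all genes 62.4% were positive in batch 1 and 51.4% in batch 2. The share of all genes positive in both batches was not computed, so nothing is read from the shared signs. NFE2L1, MYO6 and ENSSSCG00000000194 were positive in batch 1 and negative in batch 2, and CSRNP1 had the reverse signs. The difference between the batches was not tested.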

How the data were processed

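RNA-Seq of liver and testis of 48 boars gave 96 libraries. Reads were trimmed (cutadapt 1.8.1, Trimmomatic 0.33), aligned by STAR to the Sscrofa10.2 genome and assigned to genes by HTSeq 0.6.0 according to the authors, who deposited raw counts for 25322 Ensembl genes, of which 11804 identifiers matched a symbol in a table of pig gene names. Batches are those in the submitters' file labels. CPM was computed from the sum over Ensembl genes. The 15 genes and the lists were chosen with earlier results of these data known. The 20 members of largest difference between high and low BT were to be named, which covers all 15. No sequence was printed.

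Genes with a mean count above 5 were fitted with voom, sample quality weights and limma 3.58.1 in R 4.3.3, on library sizes without scaling, and p-values were adjusted by Benjamini-Hochberg over all genes tested. The liver fit contained all 3 groups. Alternatives were edgeR 4.0.16 (quasi-likelihood test), DESeq2 1.42.0, TMM factors, other filters, steps and pseudocounts, and libraries left out. The fits were tested on simulated data. Reads on genes were 3728775 to 12156143 in the stranded mRNA livers, so that genes near 5 CPM rested on few reads per liver. No 2 libraries held identical counts. The number of stepping genes was not compared with shuffled merit labels.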

Additional observations from a re-analysis of the deposited data

Results flagged for a closer look

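In the testes of low and medium BT, in which groups of 6 or 7 boars could be examined for a single boar far from the rest, 6 of 45 gene and group combinations had such a boar, where chance gives about 1 in 20. The testis of medium BT boar 8308 accounted for 5 of them, and these are 1 library and not independent. Its FOS level was 10.96 on the log2(CPM + 0.5) scale, where the other boars of the group had 2.29 to 4.68. MAFF was at 5.61 (others 1.49 to 2.65), CSRNP1 at 5.93 (3.43 to 4.32) and ENSSSCG00000003208 at 2.79 (0.15 to 1.24), whereas CDK3 was at 1.04 (3.81 to 4.10). In the liver of the same boar FOS was at 5.84, below the medium BT median of 6.12. The CDK3 level of low BT boar 1137 was 3.12, where the other low BT testes of batch 1 had 3.77 to 4.19. The part of RNA quality or handling in these values was not tested.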

How the results depend on the processing

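No paired analysis was possible because the merit groups compared share no boars. The number of stepping genes, 15, was 34 with TMM factors, 30 with DESeq2 size factors, 9 with means, 153 with steps of 0.1, 1 with steps of 0.3, 46 without bounds on the CPM in liver and 23 without the livers whose file label carries a second run. With 1 liver left out it was 6 to 31. It was 31 without high BT boar 7106, 30 without 1334, 27 without 7131 and 26 without 1326 or 9128, and it was 9 without low BT boar 1314 or 3102 and 6 without 3114. LIPG and SLC27A4 were kept in all 46 cases, but LIPG was lost without the livers of a second run, with DESeq2 size factors and with means, and SLC27A4 with TMM and DESeq2 size factors. The difference between high and low BT of each of the 15 genes kept its sign with TMM factors, a pseudocount of 1 or means. In the liver fit 447 genes were called, against 1 with edgeR, 15 with DESeq2, 177 with TMM factors, 1 without sample weights, 58 without a minimum count, 173 from the livers of high and low BT alone and 692 if each library had to hold 10 counts. Of the 15 genes 1, ENSSSCG00000003208, was called with TMM factors and also 1, the same gene, with at least 10 counts. In testis, medium against low BT gave 0 calls, against 7 with DESeq2 and 1 without a minimum count. High against medium BT gave 1 call, against 4 with DESeq2 and 0 with edgeR, without sample weights, without a minimum count and without the libraries of a second run. None of these testis calls was among the 15 genes. The causes were not tested. Genes near 5 CPM were counted with few reads in the shallowest livers, which limits the smaller steps. TMM factors for the correlations between genes, and edgeR without the testis of boar 8308 (12 of the 15 genes and 52.6% of all genes positive), were added after the data were seen.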
